A study of Mus musculus with 10 samples.

Results

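The expression of 10 genes of the mammalian circadian clock was measured in the brains of 1-year-old Snx14 mice. The members, Arntl, Clock, Npas2, Per1, Per2, Per3, Cry1, Nr1d1, Dbp and Ciart, were chosen by symbol and were read in every library. All 10 were found among the 55536 mouse genes of the tables and all 10 passed the filter on low counts in both tissues. The series held 10 bulk RNA-Seq libraries from 5 mice, each giving 1 cerebellum and 1 cerebral cortex library. Controls 1 and 2 were Het for Snx14, control 3 was WT, and KO 1 and KO 2 were Snx14 KO. The KO allele, on a C57BL/6J background, is a frameshifting single-base deletion made with Cas9 and is carried in every cell of the body, and SNX14 is a sorting nexin involved in lipid handling. Age was 1 year in every group. The time of day of dissection and the sex of each mouse were not given in the sources used here, so the phase of the clock at sampling is unknown for each of the 5 mice.

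The clock of mammalian cells is a transcriptional feedback loop. BMAL1, the protein of Arntl, pairs with CLOCK or with its paralog NPAS2 and activates genes that carry an E-box, among them Per1, Per2, Per3, Cry1, Nr1d1, Dbp and Ciart. PER and CRY proteins return to inhibit that activator, and NR1D1 (REV-ERB alpha) represses Arntl through ROR response elements. DBP carries the rhythm onward by activating genes with a D-box. Transcripts of this loop rise and fall over the day in nearly every tissue, which is why a single sampling time per mouse reads a phase as well as a level.

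Promoter stretches of 4 members are shown because they carry the letters of an E-box or a D-box, the elements named above. RefSeq promoter windows (build GRCm38.p6, 250 bases before to 50 after each start) were at hand for 9 of the 10 members, and Per2 had none. The E-box CACGTG was searched on both strands, which read alike for this palindrome, and stood in the windows of 3 members, Per1, Cry1 and Ciart, against 8.09% of all 27025 genes. Shares are of genes with the letters in at least 1 of their windows, since some genes, among them Arntl, Clock and Per1, have several. The D-box TTATGTAA stood in the window of Per3 only, against 1.11% of all genes. The related letters CACGTT stood in Cry1 and Nr1d1 (5.44% of all genes), the ROR core TAGGTCA stood in Arntl (2.97%), and neither the D-box form TTACGTAA (0.126%) nor the cyclic AMP element TGACGTCA (2.03%) stood in any of the 9. Capitals below mark the E-box or D-box, every stretch is written 5′ to 3′ on the strand of its gene, and a match is a description of letters, not of binding.
Per1, chr11:69098763-69098808, plus strand, E-box: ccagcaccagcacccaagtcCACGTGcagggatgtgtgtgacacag
Cry1, chr10:85185089-85185134, minus strand, E-box: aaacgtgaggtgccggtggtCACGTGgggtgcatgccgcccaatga
Ciart, chr3:95882247-95882364, minus strand, 3 E-boxes: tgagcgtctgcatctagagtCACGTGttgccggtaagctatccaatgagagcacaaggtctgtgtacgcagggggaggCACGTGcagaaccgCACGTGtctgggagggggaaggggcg
Per3, chr4:151044796-151044890, minus strand, 2 D-boxes: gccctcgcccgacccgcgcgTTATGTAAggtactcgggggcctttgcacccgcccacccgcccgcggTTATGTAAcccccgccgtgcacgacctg
The first E-box base lay 166 bases before the RefSeq start of Per1, 60 before that of Cry1, and 116, 58 and 44 before that of Ciart. The Per1 stretch lies inside the span of a longer annotated Per1 transcript but outside its exons, and 5 bases of the Ciart stretch fall in an annotated Ciart exon.

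Library totals ran from 16088310 to 22975355 counts on genes, and the members held between 45 counts (Npas2, cerebellum control 2) and 5404 counts (Nr1d1, cerebellum KO 2) in a library. Levels below are CPM (library-size-scaled counts) after TMM scaling over all 10 libraries. Snx14 itself was 42.8, 39.9 and 73.2 CPM in the cerebellum of controls 1, 2 and 3 and 15.5 and 17.4 CPM in KO 1 and KO 2, and in cortex 34.3, 34.9 and 50.8 CPM against 14.8 and 16.1 CPM, so the KO libraries were the lowest in both tissues and the WT control the highest. Granule cell markers, which define cerebellum, summed to 3796 to 4554 CPM over 8 genes in cerebellum and 132 to 176 CPM in cortex. A single library stood apart from its group. In cortex control 2 a list of 12 striatal markers summed to 5299 CPM against 2180 to 2378 CPM in the other two control cortices and 736 to 1354 CPM in the KO cortices, and 5 oligodendrocyte markers summed to 7326 CPM against 3903 to 4244 CPM in the other 4 cortices.

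**Figure D1:**
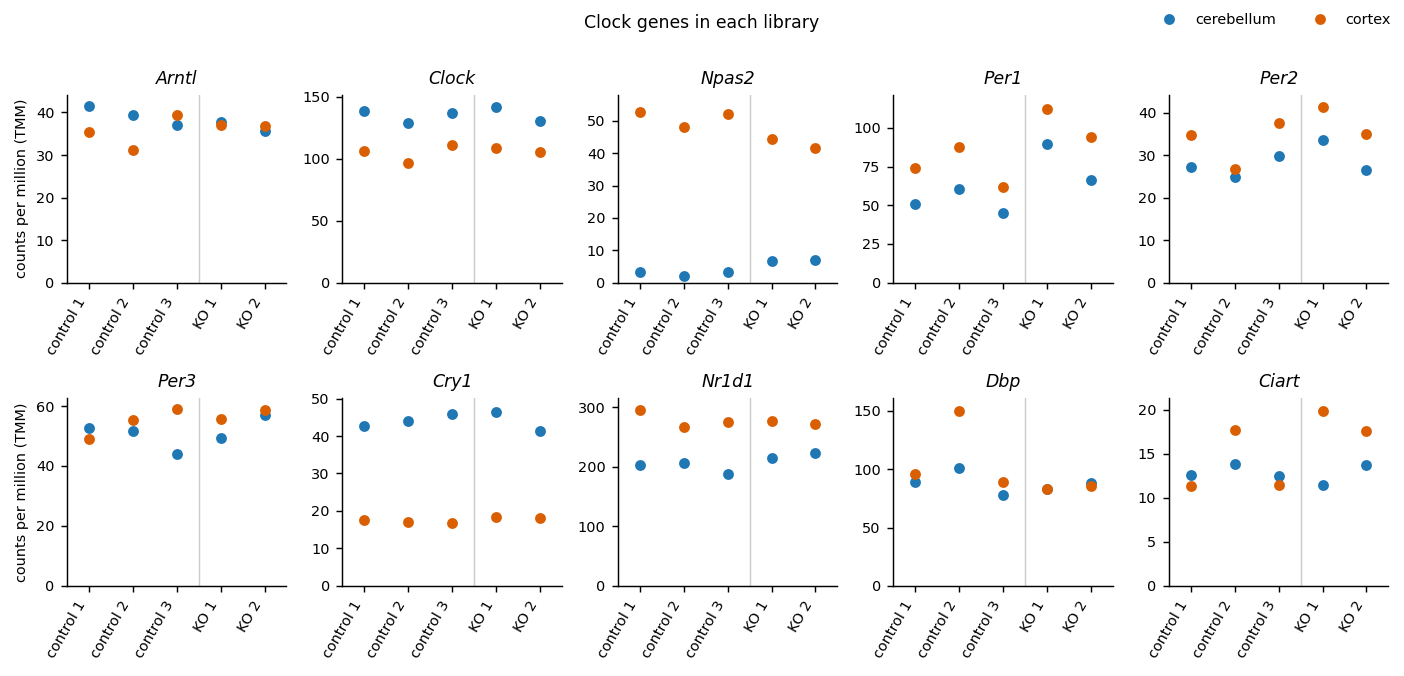
CPM (linear axis from 0) of the 10 clock genes in each library, with 1 point per library, cerebellum in blue and cortex in orange, and the 3 controls left of the grey line. Npas2 lies between 2.08 and 7.12 CPM in cerebellum and between 41.8 and 52.8 CPM in cortex, Cry1 is higher in every cerebellum than in any cortex, and Dbp reaches 150 CPM in cortex control 2.

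The order of levels was compared per kilobase of exon, since the members differ in length. In control cerebella Nr1d1 was highest at 64.8 CPM per kb ± 3.28 (SD, n = 3), followed by Dbp at 29.8 ± 3.89, Cry1 at 13.2 ± 0.452, Clock at 9.81 ± 0.375 and Per1 at 9.27 ± 1.38. Ciart, Arntl, Per3 and Per2 followed between 5.73 and 4.66 CPM per kb, and the ranges of the 3 mice overlapped from Arntl to Per2 and fell just short of it between Ciart and Arntl. Npas2 was last at 0.609 ± 0.151. Clock and Per1 likewise overlapped between mice, whereas Nr1d1, Dbp and Cry1 did not overlap with their neighbours. In control cortices Nr1d1 (90.7 CPM per kb ± 4.64, n = 3) and Dbp (37.3 ± 11.1) again stood first, Per1 (13.2 ± 2.29) and Npas2 (10.7 ± 0.532) followed with overlapping ranges, and Clock stood at 7.64 ± 0.540. The remaining members, Ciart, Per3, Per2, Cry1 and Arntl, lay between 5.96 and 4.70 CPM per kb in cortex and overlapped between neighbours, Ciart also with Clock. Reads were counted without regard to strand, and Nr1d1 shares 263 exonic bases (8.55% of its exons) with the antisense gene Thra, whose level was 344 to 399 CPM in cerebellum and 641 to 746 CPM in cortex. Dbp shares 539 bases (18.0%) with the antisense gene Sphk2 and Arntl shares 33 bases (0.439%) with Gm45355, so a part of their counts cannot be assigned to 1 gene. No exonic base of the other 7 members is shared.

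Npas2 and Clock, paralogs that each pair with BMAL1, showed the widest contrast between the regions. Npas2 (ENSMUSG00000026077.15, chr1:39193731-39363236, plus strand) was 3.31, 2.08 and 3.35 CPM in the cerebellum of controls 1, 2 and 3 and 6.69 and 7.12 CPM in that of KO 1 and KO 2. In cortex it was 52.8, 48.1 and 52.2 CPM in the controls and 44.3 and 41.8 CPM in the KO mice. Every cortex therefore lay far above every cerebellum, with the KO cerebella above the control cerebella and the KO cortices below the control cortices. Clock (ENSMUSG00000029238.11, chr5:76209868-76304792, minus strand) was 138, 129 and 137 CPM in control cerebella, 142 and 130 CPM in KO cerebella, 106, 96.7 and 111 CPM in control cortices and 109 and 106 CPM in KO cortices. Clock varied little between mice, was somewhat higher in cerebellum, and its KO and control values overlapped in both tissues.

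Per kilobase of exon, Npas2 amounted to 6.17% ± 1.34 of Clock in control cerebella (SD, n = 3) and 14.6% ± 1.52 in KO cerebella (n = 2). In cortex the same quantity was 140% ± 4.48 in controls and 115% ± 2.32 in KO mice. The log2 ratio of Npas2 to Clock was lower in cerebellum than in cortex in 5 of 5 mice, with a mean difference of -3.91 ± 0.888 (SD, n = 5), and the exact two-sided sign-flip test over mice gave p = 0.0625, the smallest that 5 pairs allow. Without the pairing by mouse, the exact permutation of the 10 libraries between tissues gave p = 0.00794, again the smallest it allows. That permutation treats the 2 libraries of a mouse as independent, which they are not. KO minus control, the log2 ratio differed by 1.26 in cerebellum and by -0.28 in cortex, each with an exact permutation p of 0.1, the smallest that 3 against 2 allows. Whether Npas2 lies above Clock in cortex depended on the length used: log2 ratios were 0.18 to 0.51 with all exonic bases (4791 and 13727) and -0.14 to 0.19 with the longest coding transcript of each gene (4236 and 9744), a length tried after the data were seen. The differences between tissues and genotypes do not depend on length.

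**Figure D2:**
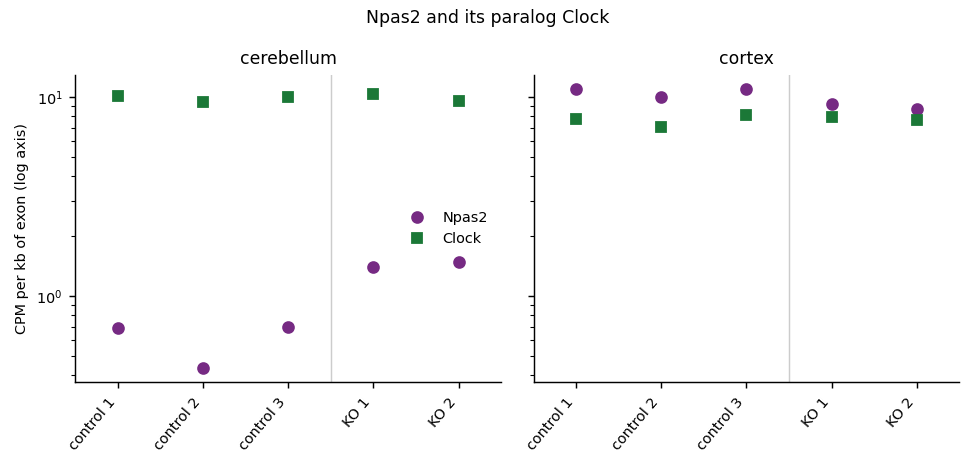
Npas2 (circles) and Clock (squares) in CPM per kb of exon on a log axis, with 1 point per library and the 3 controls left of the grey line. Npas2 lies at 0.434 to 1.49 CPM per kb in cerebellum, below Clock at 9.38 to 10.4, and at 8.72 to 11.0 CPM per kb in cortex, where Clock is 7.05 to 8.10.

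Across control mice, cerebellum was compared with cortex in 1 model of all 10 libraries (edgeR's quasi-likelihood test, where a call required a p below 0.05 after Benjamini-Hochberg adjustment and a log2 difference beyond 0.5 in either direction). This contrast called 8433 of 20614 genes tested, or 40.9%, and 3 of 10 members, a share near that background. The model had no term for the mouse, so it treated the 2 libraries of a mouse as independent, which they are not. With the mouse as a block the contrast called 8613 genes and 3 members. In that fit 7 members had an unadjusted p under 0.05, against 5 in the main fit. Npas2 was lower in cerebellum by 4.13 on the log2 scale (log2 -4.13, SE 0.152, edgeR adjusted p = 3.33e-09), and Per1, a light- and stress-inducible PER gene, was lower (log2 -0.52, SE 0.157, edgeR adjusted p = 0.0160). Cry1, an inhibitor of the CLOCK and BMAL1 pair, was higher in cerebellum (log2 1.37, SE 0.0795, edgeR adjusted p = 1.02e-07). Nr1d1 (log2 -0.49, SE 0.0691, edgeR adjusted p = 0.000125) and Clock (log2 0.36, SE 0.0707, edgeR adjusted p = 0.00121) passed the p but not the size threshold. Nr1d1 passed both in 6 of 15 alternatives, at log2 -0.51 with RLE size factors and by DESeq2, -0.53 without cortex control 2 (edgeR adjusted p = 3.23e-05), and -0.51 to -0.50 without cerebellum control 1, cerebellum control 2 or cortex control 3. The antisense neighbour Thra differed the same way as Nr1d1, at log2 -0.98, and its part in the Nr1d1 counts was not tested. Dbp (-0.32), Per2 (-0.27), Per3 (-0.14), Ciart (-0.06) and Arntl (0.15) were not called. Without cortex control 2 these differences were -0.07 for Dbp, -0.42 for Per2, -0.14 for Per3, 0.18 for Ciart and 0.06 for Arntl, again with none called. The median of the 10 members was -0.20 against 0.02 over all genes tested. The Per1 call was lost on the p without cerebellum control 3 (edgeR adjusted p = 0.0680, log2 -0.42) and on the size without cerebellum control 1 (log2 -0.499) or cortex control 2 (log2 -0.40) and for the mean of the control and KO contrasts (log2 -0.46), while Npas2 and Cry1 were called in all 15 alternatives.

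Cry1 (ENSMUSG00000020038.10, chr10:85131700-85185064, minus strand) was 42.8, 44.0 and 45.8 CPM in control cerebella and 46.3 and 41.3 CPM in KO cerebella. In cortex it was 17.7, 17.0 and 16.8 CPM in controls and 18.4 and 18.0 CPM in KO mice. The tissues did not overlap, and within a tissue the 5 mice stayed within a log2 range of 0.165 in cerebellum and 0.138 in cortex.

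The wider clock list of 24 genes placed these differences among the other parts of the loop. In cerebellum against cortex of the controls 12 of 24 were called, 6 in each direction, against the 40.9% of all genes. Among nuclear receptors that bind the same elements as NR1D1, Rora (log2 2.46) was higher in cerebellum and Rorb (log2 -1.80) was higher in cortex. Nr1d2, the paralog of Nr1d1, was higher in cerebellum (0.91), as were Nfil3, a repressor at D-boxes (0.78), Timeless (0.85) and Fbxw11, a ubiquitin ligase subunit (0.74). Arntl2, the paralog of Arntl, was lower in cerebellum (-1.64), as were Hlf, a D-box activator related to Dbp (-0.81), the kinase Csnk1e (-0.75), the deadenylase-related Noct (-0.67) and Btrc, another ubiquitin ligase subunit (-0.57). The edgeR adjusted p ran from 4.62e-08 (Rora) to 0.00294 (Nfil3) for the genes named here. Dbp and Tef, the other D-box activators, were not called (-0.32 and -0.36). Paralogs within the list could differ in sign, as Npas2 and Clock, Arntl2 and Arntl (0.15, not called) and Nr1d2 and Nr1d1 (-0.49, not called for its size) did.

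**Figure D3:**
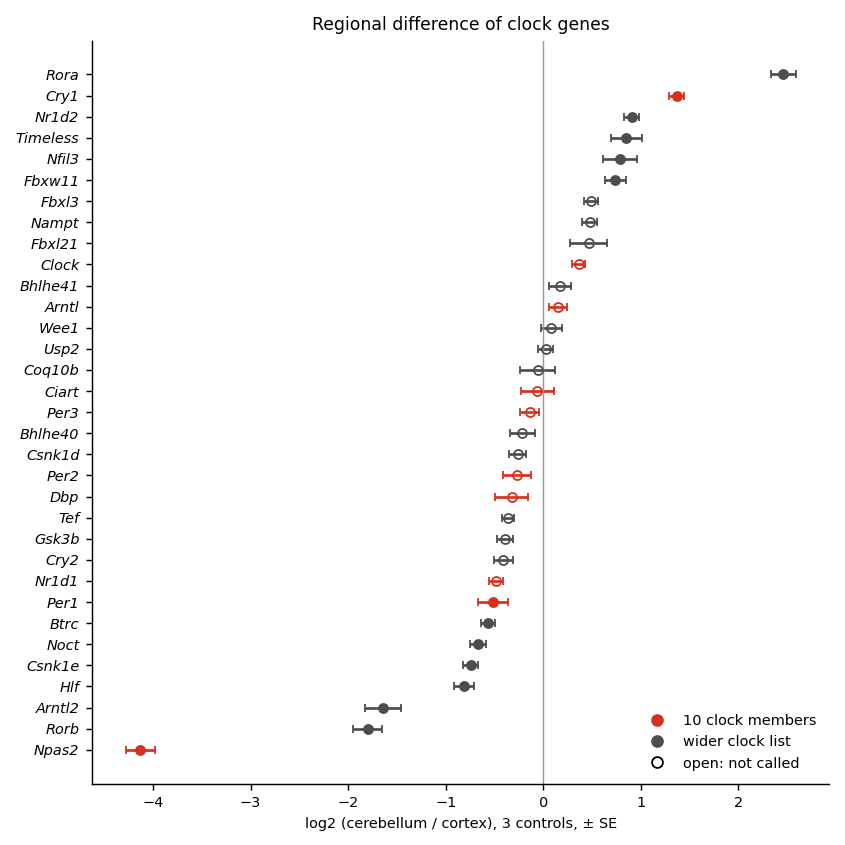
Log2 difference of cerebellum against cortex in the 3 control mice (x axis, bars ± SE from edgeR) for the 10 members in red and genes of the wider list in grey, with filled points called. Rora at 2.46 lies at the top and Npas2 at -4.13 at the bottom.

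In KO against control cerebella, 1 of 10 members was called, against 302 of 19447 genes tested, or 1.55%. That member was Npas2, which was higher in KO mice by 1.24 on the log2 scale (SE 0.226, edgeR adjusted p = 0.0301). The call did not hold in 4 of the 5 fits that leave out a library: the edgeR adjusted p was 0.109 without control 1, 0.0817 without control 3, 0.105 without KO 1 and 0.132 without KO 2, and it was 0.0251 without control 2. The log2 difference was 1.04 to 1.35 in these 5 fits. Counts of Npas2 in cerebellum were low, 45 to 71 in controls and 122 to 172 in KO libraries. Beside it in the same libraries, 9 of 9 Purkinje cell markers were below the controls in both KO mice (summed CPM 4118 to 4214 against 8267 to 10044). Of 5 astrocyte markers 4 were above and 1 was below (sum 2526 to 2680 against 2184 to 2322). Of 5 microglial markers 3 were above (sum 142 to 146 against 99.2 to 113), while 30.0% of all genes tested lay wholly above or below the controls. The part of these markers in the Npas2 value was not tested. Fewer cells of a type and less RNA per cell cannot be told apart in such bulk tissue.

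**Figure D4:**
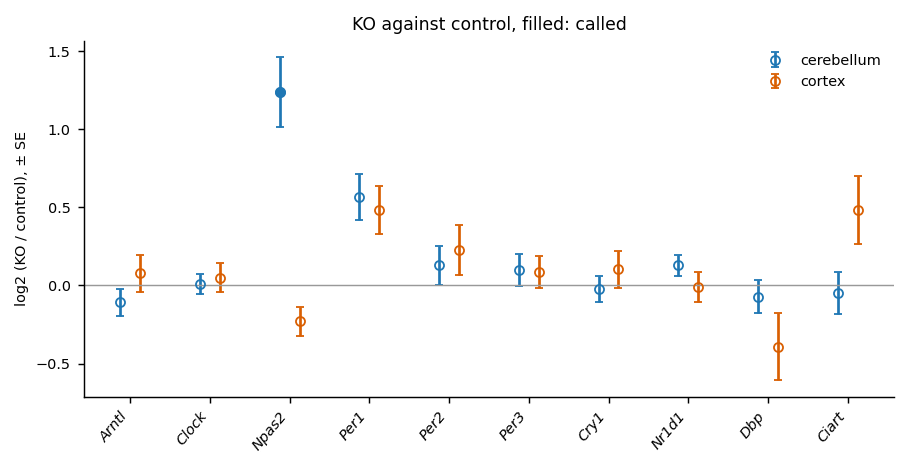
Log2 difference of KO against control mice (y axis, bars ± SE from edgeR) for the 10 members in cerebellum (blue) and cortex (orange), with filled points called. Npas2 in cerebellum, at 1.24, is the only filled point, and Per1 lies at 0.57 and 0.48 in the tissues.

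Per1 (ENSMUSG00000020893.17, chr11:69095217-69109960, plus strand) was 51.1, 60.5 and 45.0 CPM in control cerebella and 89.9 and 66.2 CPM in KO cerebella. In cortex it was 74.3, 87.5 and 61.8 CPM in controls and 112 and 94.1 CPM in KO mice. Both KO values lay above all 3 controls in each tissue. The difference was 0.57 (SE 0.147, edgeR adjusted p = 0.112) in cerebellum and 0.48 (SE 0.155, edgeR adjusted p = 0.768) in cortex, neither of which passed. In cerebellum Per1 passed without control 2 (log2 0.69, edgeR adjusted p = 0.0421) or without KO 2 (log2 0.77, adjusted p = 0.0499), and by DESeq2 (log2 0.57, adjusted p = 0.00946). In cortex it passed without control 2 (log2 0.62, edgeR adjusted p = 0.0109). A list of 7 glucocorticoid-responsive genes, of which Per1 was not one, summed to 388 to 450 CPM in KO against 234 to 308 CPM in control cerebella. There 5 of 7 genes lay above every control, and Fkbp5 and Zbtb16 overlapped. In cortex the sum was 378 to 457 against 280 to 305 CPM, with 4 of 7 above, and Fkbp5, Zbtb16 and Pdk4 overlapped. Of all genes tested, 30.0% in cerebellum and 24.7% in cortex lay wholly above or below the controls. The 8 immediate early genes overlapped between genotypes, at 104 to 302 CPM in control and 244 to 266 CPM in KO cerebella and at 428 to 1068 and 963 to 980 CPM in cortex, with control 3 lowest in both tissues, as it was for Per1. The part of either response in Per1 was not tested.

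In cortex no gene was called by edgeR in KO against control, 0% of 19202, with 1139 genes (5.93%) at an unadjusted p under 0.05 and 49 called by DESeq2. Snx14 itself went uncalled by edgeR (log2 -1.36, edgeR adjusted p = 0.754), although both KO cortices lay below every control. DESeq2 called it (log2 -1.36, adjusted p = 1.42e-06). The lack of edgeR calls in cortex therefore does not show that the genes were unchanged. Of the 10 members 0 were called by edgeR and 0 by DESeq2, and 2, Npas2 and Per1, had an unadjusted p under 0.05. Npas2 was lower in KO cortex by 0.23 on the log2 scale (log2 -0.23, SE 0.0927, edgeR adjusted p = 0.823). The striatal markers moved in the same libraries, with 12 of 12 below the controls in both KO cortices, while 24.7% of all genes tested lay wholly above or below. Without control 2 Npas2 was at log2 -0.27 (edgeR adjusted p = 0.188). The part of the striatal markers in the cortical values was not tested.

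The KO effect on Npas2 differed between the tissues. The cerebellum effect minus the cortex effect was 1.49 (SE 0.222, edgeR adjusted p = 0.0408), and Npas2 was 1 of 21 genes called in this interaction among 20614 tested, or 0.102%, and the 1 of 10 members. That fit likewise had no term for the mouse. With the mouse as a block the interaction called 128 genes and Npas2 had 1.50 (edgeR adjusted p = 0.00667). The call was kept without cerebellum control 2 (adjusted p = 0.0161) or cortex control 2 (adjusted p = 0.0156) and lost in the other 8 fits that leave out a library, at edgeR adjusted p of 0.0642 to 0.231 with log2 differences of 1.44 to 1.60.

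Dbp, the D-box activator and a direct E-box target (ENSMUSG00000059824.12, chr7:45705088-45710203, plus strand), was 89.4, 101 and 77.5 CPM in control cerebella and 82.9 and 87.8 CPM in KO cerebella. In cortex it was 96.1, 150 and 89.0 CPM in controls and 82.9 and 85.7 CPM in KO mice. The cortical groups did not overlap, with or without control 2, but the size of the mean difference was set mainly by control 2. The KO difference in cortex was -0.39 (SE 0.214, edgeR adjusted p = 0.885) with that library and -0.12 without it, and in cerebellum it was -0.07. Sphk2, which shares exonic bases with Dbp on the other strand, was 96.0 CPM in cortex control 2 and 60.4 to 67.5 CPM in the other cortices, and its part in the Dbp value was not tested.

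Ciart (ENSMUSG00000038550.10, chr3:95878503-95882251, minus strand), a repressor of the CLOCK and BMAL1 pair, was 12.6, 13.8 and 12.5 CPM in control cerebella and 11.4 and 13.7 CPM in KO cerebella. In cortex it was 11.3, 17.7 and 11.4 CPM in controls and 19.9 and 17.5 CPM in KO mice, so control 2 lay with the KO mice. The cortical KO difference was 0.48 (SE 0.218, edgeR adjusted p = 0.861), and 0.74 without control 2 (edgeR adjusted p = 0.0173), a fit in which 98 genes and 2 members, Ciart and Per1, were called. In cerebellum it was -0.05.

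Per2 (ENSMUSG00000055866.9, chr1:91415982-91459324, minus strand) was 27.3, 24.8 and 29.8 CPM in control and 33.7 and 26.5 CPM in KO cerebella, and 34.7, 26.7 and 37.5 CPM in control and 41.3 and 35.0 CPM in KO cortices. Per3 (ENSMUSG00000028957.12, chr4:151003652-151044665, minus strand) was 52.6, 51.5 and 44.1 CPM in control and 49.3 and 57.1 CPM in KO cerebella, and 48.9, 55.3 and 59.0 CPM in control and 55.7 and 58.6 CPM in KO cortices. Both genes, inhibitors of the loop like Per1, overlapped between genotypes in both tissues, with KO differences of 0.13 and 0.23 for Per2 and 0.10 and 0.09 for Per3 in cerebellum and cortex. Without cortex control 2 the cortical difference was 0.10 for Per2 (edgeR adjusted p = 0.809) and 0.10 for Per3.

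Arntl (ENSMUSG00000055116.8, chr7:113207465-113314126, plus strand), the common partner of Clock and Npas2, was 41.5, 39.4 and 37.0 CPM in control and 37.7 and 35.6 CPM in KO cerebella, and 35.5, 31.2 and 39.4 CPM in control and 37.0 and 36.7 CPM in KO cortices. Nr1d1 (ENSMUSG00000020889.11, chr11:98767932-98775333, minus strand), its repressor, was 203, 207 and 188 CPM in control and 214 and 224 CPM in KO cerebella, and 295, 267 and 275 CPM in control and 277 and 272 CPM in KO cortices. Arntl overlapped in both tissues, and Nr1d1 lay above the controls in KO cerebella only, with KO differences of -0.11 and 0.08 for Arntl and 0.13 and -0.01 for Nr1d1. Without cortex control 2 the cortical differences were -0.0033 for Arntl and -0.04 for Nr1d1. Thra was likewise highest in the KO cerebella, at 383 and 399 CPM against 344 to 379 CPM.

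Counted over the members, the KO mice lay wholly outside the range of the controls for 3 of 10 in cerebellum (Npas2, Per1 and Nr1d1, all above), against 30.0% of the genes tested there, and for 4 of 10 in cortex (Per1 and Cry1 above, Npas2 and Dbp below), against 24.7%. Without cortex control 2, a setting added after the data were seen, the cortical count was 5 of 10 (Ciart joined, above), against 41.4% of the genes tested. These shares are near the background. The median KO difference of the members was 0.05 in cerebellum and 0.08 in cortex, against 0.00090 and 0.0012 over all genes tested. Of the wider list 0 of 24 were called in either tissue by edgeR or by DESeq2, with 6 in cerebellum and 3 in cortex at an unadjusted p under 0.05, against 13.4% and 5.93% of all genes tested, and its medians were 0.03 and 0.04. Rora, a receptor that drives Arntl and is abundant in Purkinje cells, was 427, 343 and 413 CPM in control and 312 and 275 CPM in KO cerebella (log2 -0.43, edgeR adjusted p = 0.0989), and passed without control 2 (log2 -0.53, adjusted p = 0.0102). Its cerebellum effect minus its cortex effect was -0.71 (edgeR adjusted p = 0.265), and with the mouse as a block it was -0.72 and passed (adjusted p = 0.0212).

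Whether the 2 tissues of a mouse stood at a like phase was examined through each library's deviation from its tissue mean (log2 CPM with a prior count of 2). For the 10 members and 5 mice, 23 of 50 deviations had the same sign in both tissues, or 46.0%, against 56.2% over all 18111 genes tested in both and 75 of 120 (62.5%) for the wider list. By mouse the members agreed for 3, 5 and 6 of 10 genes in controls 1, 2 and 3 and for 5 and 4 of 10 in KO 1 and KO 2. The correlation of the deviations of the 10 members between the tissues, given as a description since they share libraries, was -0.14, 0.29, 0.37, 0.12 and -0.39 in the same order of mice, and across all genes 0.20 to 0.42. The same mouse was highest in both tissues for 4 of 10 members (29.6% of all genes) and lowest for 3 of 10 (28.2%). With all 5 mice the members thus agreed by sign less often than all genes, and by the highest or the lowest mouse they did not. Without 1 mouse, a setting added after the data were seen, 52.5 to 57.5% of the members' signs agreed. The share over all genes was not computed for that setting, so the lower share of the members rests on the full set of mice. These measures do not give 1 answer on whether the phases were alike. With deviations taken from the mean of each genotype instead, 70.0% of the members' signs agreed against 56.9% over all genes, a figure in which the pair of KO mice mirror each other and count the same comparison again. Some deviations are close to 0, such as 0.00018 for Nr1d1 in cerebellum control 2, and their sign carries little.

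Per1 was the member whose mice stood in 1 order in both tissues: KO 1, KO 2, control 2, control 1 and control 3 from high to low, an observation made after the values were seen. Such an identical order was found for 1.89% of all genes and, in the wider list, for Bhlhe40, a repressor at E-boxes, whose order was KO 1, KO 2, control 3, control 1 and control 2. Both orders begin with the KO mice, so a difference between KO and control enters them. With deviations from the mean of each genotype, 0 of 10 members had the same order in both tissues (3.56% of all genes). In that setting 2 of 10 shared the highest mouse (31.1%) and 3 of 10 the lowest (30.3%). Per1 deviations from the tissue mean spanned 0.995 in cerebellum and 0.860 in cortex on the log2 scale. Per2 had KO 1 as the highest and control 2 as the lowest mouse in both tissues. Clock deviated with the same sign in 5 of 5 mice, yet its range was only 0.143 and 0.202. Arntl and Npas2 had the same sign in 0 of 5 mice. For Dbp control 2 was highest in both tissues, at 0.21 in cerebellum and 0.61 in cortex. Arntl and Dbp, whose rhythms are known to stand nearly opposite in phase, had deviations of opposite sign in cortex for controls 2 and 3 and for both KO mice, and in cerebellum for KO 2. In cortex this rested largely on control 2, at 0.61 for Dbp and -0.20 for Arntl, which also shifts the tissue means. The correlation of their deviations over all libraries was -0.60, and 0.10 without both libraries of control 2.

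**Figure D5:**
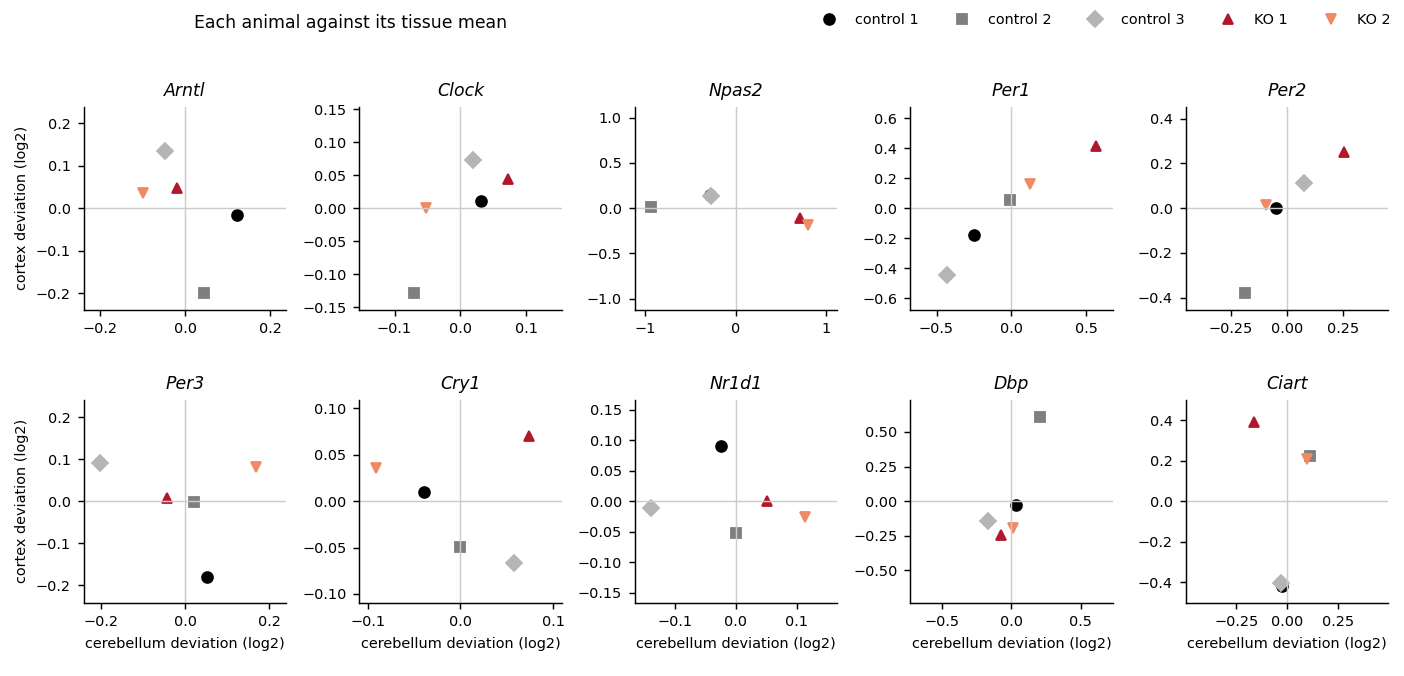
Deviation of each mouse from the mean of its tissue (log2 CPM), cerebellum on the x axis and cortex on the y axis, with 1 point per mouse and 1 panel per member on its own scale. In Per1 the 5 mice rise together from -0.43 and -0.45 (control 3) to 0.56 and 0.41 (KO 1), and in Npas2 both KO mice lie right of 0 and below it.

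For 3 members, the genes compared had at least 5 mean CPM in each tissue and at most 10% of exonic bases in another gene, 9728 or 9729 per member. Those with deviations most like the member's over the 10 libraries were listed by Pearson's r, as a description over libraries of 5 mice. For Npas2 they were Nnat (0.97), Abat (0.97), Gpx3 (0.96), Usp11 (0.95) and C4b (0.94), and without control 2 these had r of 0.94 to 0.97. For Arntl they were Tmem63c (0.98), Snapc1 (0.95), Sbno1 (0.94), Mtus2 (0.94) and Stard7 (0.94), none of them in the clock lists. For Dbp they were Cand2 (0.99), Slc29a1 (0.98), Oard1 (0.98), Arpp19 (0.98) and Ppa2 (0.98), and the most opposite were Pnpla6, Dlg5, Trak1, Pitpnm2 and Ptprg at -0.98 to -0.97. The Dbp list rested in part on control 2: without both libraries of that mouse, r was 0.79 to 0.91 for the first 5 and -0.84 to -0.53 for the opposite 5. Among the clock genes compared, Dbp ran most opposite to Bhlhe40 (r -0.92), Hlf (-0.90) and Per2 (-0.88), which became -0.55, -0.50 and -0.62 without control 2. Other opposite pairs changed sign without it: Csnk1d went from -0.80 to 0.59 and Cry2 from -0.77 to 0.56. All these deviations were from the tissue mean, so a difference between KO and control mice enters r. Those of Npas2 spanned 1.725 in cerebellum, where the KO mice were highest, and 0.337 in cortex.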

How the data were processed

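Bulk mRNA from 10 libraries of 5 mice (cerebellum and cortex of each) was sequenced by the authors from strand-specific libraries and mapped to GRCm38 with STAR. The deposited values are raw counts per gene, made by the authors with featureCounts (Subread 2.0.1, unstranded, multi-overlapping reads allowed, per the file headers). Of 81881 entries, 55536 mouse genes of GENCODE M21 were used, and 26345 other entries (0.160 to 0.926% of counts) were left out. All 37 mitochondrial genes were at 0 in every library.

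KO was compared with control within each tissue, and tissues and the difference of KO effects in 1 fit of 10 libraries, with edgeR 4.0.16 (TMM, filterByExpr at a count minimum of 10, quasi-likelihood test, Benjamini-Hochberg over all genes tested, R 4.3.3). A call needed an adjusted p under 0.05 and, except for the difference of effects, an absolute log2 difference over 0.5. The fit was tested on simulated data. Alternatives were DESeq2 1.42.0, its size factors, no filter, each library left out, and a replicate block. The authors used DESeq2 1.38.3. Tissues of 1 mouse deviated together from the mean of their genotype (r 0.233 to 0.465 across genes, with the same value for both KO mice, which mirror each other). The pairing comes from the mouse numbers in the labels. The p-values measure the spread between libraries of these mice only, and the main fit of 10 libraries had no term for the mouse.

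The 10 members, the 24 genes of the wider list and the marker lists were chosen with earlier results of these data known. Genes named were the members, wider-list genes called in any comparison, Snx14, genes sharing over 10% of a member's exons and the 5 genes most like Arntl, Npas2 and Dbp (5 most opposite for Dbp). Others, such as Thra and Bhlhe40, were named after their values were seen. A gene of the wider list that enters its counts is not reported by name here.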

Additional observations from a re-analysis of the deposited data

Results flagged for a closer look

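For Npas2 the effect of the KO differed between cerebellum and cortex by 1.49 on the log2 scale (edgeR's quasi-likelihood interaction test, adjusted p = 0.0408), with both KO cerebella above and both KO cortices below all 3 controls. No other of the 10 members and 24 wider-list genes passed that test with 3 control and 2 KO mice, although Rora passed with the mouse as a block, without the filter on low counts and by DESeq2. The Npas2 difference lost its call in 8 of the 10 fits that leave out a library (edgeR adjusted p of 0.0642 to 0.231), with log2 values of 1.44 to 1.60 in these. Groups of 2 and 3 libraries were too small for a test of outlying samples.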

How the results depend on the processing

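Of 565 refits of single genes, 509 kept the direction and the side of the threshold, 21 lost a call, 19 gained one and 16 changed sign, all of these 16 for uncalled differences. Cerebellum, KO against control: called genes were 842 without the filter on low counts, 181 with the label number as a replicate block and 133 to 400 without 1 library, against 302. Members called were 2 by DESeq2 and 2 without the filter (Per1 joined), 0 with the block and 0 to 2 without 1 library, and the wider list 0 to 1. The label numbers did not pair mice within a tissue (r of the deviations 0.03 to 0.19 over the 2 pairs), and Npas2 had 1.38 with that block (edgeR adjusted p = 0.107). Cortex, KO against control: called genes were 49 by DESeq2, 380 without the filter, 3 with the block and 0 to 98 without 1 library, against 0, and members 0 to 2. Difference of the KO effects: called genes were 221 by DESeq2, 599 without the filter, 128 with the mouse as a replicate block and 3 to 117 without 1 library, against 21, members 0 to 1, and the wider list 1 by DESeq2, 1 without the filter and 1 with the block (Rora). Tissue contrast: 7870 to 8616 genes, 2 to 4 members and 12 to 14 wider-list genes without 1 library. The Npas2 to Clock ratio gave -3.91 with p = 0.00794 under no replicate block (exact permutation, which ignores that each mouse gave 2 libraries). It gave -4.17 to -3.65, 1.06 to 1.37 and -0.31 to -0.26 without 1 mouse or library. Agreement between tissues was 70.0% centred on genotype and 52.5 to 57.5% without 1 mouse, which was added after the data were seen. The block changed no other call of a member. Uncalled KO differences that changed sign in cerebellum without 1 library were Clock (-0.046 to 0.066, and -0.00029 without the filter), Cry1 (-0.098 to 0.055, and 0.0042 with the block), Per2 (-0.044 to 0.29), Ciart (-0.20 to 0.079), Per3 (-0.017 to 0.21) and Dbp (-0.16 to 0.027). In cortex they were Clock (-0.0029 to 0.091), Arntl (-0.0033 to 0.16) and Nr1d1 (-0.037 to 0.032), and in the tissue contrast Ciart (-0.18 to 0.18). The causes were not tested. With 3 and 2 mice per group, and 45 to 172 counts of Npas2 in cerebellum, small differences were not detectable. In cortex edgeR also missed the loss of Snx14 itself, at log2 -1.36.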
